A study of Homo sapiens with 12 samples.

Results

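Collagenases, membrane-type matrix metalloproteinases (MMPs), their tissue inhibitors (TIMPs) and basigin were followed in spheroids of DU145 prostate cancer cells that lacked or carried α2 integrin. The members were taken by gene symbol: the collagenases MMP1 and MMP13, the membrane-type MMPs MMP14, MMP15 and MMP24, the inhibitors TIMP1, TIMP2 and TIMP3, and BSG, which encodes basigin. They were 9 of the 26485 genes in the tables. 8 of the 9 passed the filter on low counts and were tested, and TIMP3 did not.

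DU145 is an established human prostate cancer cell line, and α2 integrin, encoded by ITGA2, pairs with β1 to form a collagen receptor. DU145KO cells carried a CRISPR-Cas9 knock-out of ITGA2 and received no further transfection. DU145KO+α2 cells were DU145KO cells stably transfected with pAWneo2 holding α2 cDNA, and DU145KO+vector cells were DU145KO cells stably transfected with the same vector empty. All 3 lines thus shared the knock-out, and the 4 replicates of each were spheroids of 8000 cells kept for 72 hours in serum-free medium. The α2 cDNA of the rescued line was carried by the vector, and reads from it and from the edited ITGA2 locus were not separated. DU145KO+α2 and DU145KO+vector cells were maintained in geneticin, which is not given for DU145KO, and each condition was represented by 1 derived line. Transfection, selection and differences between lines therefore cannot be told apart from one another in comparisons with DU145KO, nor a difference between lines from the effect of α2 in DU145KO+α2 compared to DU145KO+vector. Parental DU145 cells were not analysed here.

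Collagenases cut the triple helix of fibrillar collagens, which few other proteases can do. MMP1 and MMP13 are secreted as inactive proenzymes, whereas MMP14, MMP15 and MMP24 are held at the cell surface by a transmembrane segment and are activated by furin-like convertases. TIMPs bind the active site of MMPs, and TIMP2 also forms a complex with MMP14 that activates proMMP2. Basigin, also called EMMPRIN or CD147, is a surface glycoprotein known for inducing MMPs in neighbouring cells and for carrying lactate transporters to the membrane.

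The total count per sample was 13948734 to 19988111, and 3 counts, the floor used here, corresponded to 0.150 to 0.215 CPM (counts scaled to a common library size). ITGA2 itself was higher in DU145KO+α2 compared to DU145KO+vector by 4.11 on the log2 scale (edgeR quasi-likelihood test, adjusted p = 3.15e-09), in the direction of the labels. It was still counted in the α2 negative lines, at 13.0 to 25.8 CPM, against 259 to 332 CPM in DU145KO+α2. The 5 epithelial markers KRT8, KRT18, KRT19, EPCAM and CDH1 were above the floor in every line. Their summed level was 1210 to 1583 CPM in DU145KO, 859 to 1154 CPM in DU145KO+α2 and 1141 to 1387 CPM in DU145KO+vector. CDH1 was lower in DU145KO+α2 compared to DU145KO+vector by −0.70 on the log2 scale (edgeR adjusted p = 0.00981), with no overlap. With the replicate block 3 of the 5 (CDH1, KRT8 and KRT18) were called lower, against 13.7% of all genes. Compared to DU145KO 3 of the 5 were called lower, CDH1 by −1.13, EPCAM by −1.14 and KRT18 by −0.42 (edgeR adjusted p = 0.00054, 1.86e-05 and 0.0434). Of all genes, 5.08% were called lower in this comparison. EPCAM was also lower in DU145KO+vector compared to DU145KO (−0.83, edgeR adjusted p = 0.00093). The part of these markers in the MMP1 result was not tested. Of 6 fibroblast markers only COL1A1 and PDGFRB were above the floor, and the list summed to 8.47 to 12.7 CPM over all samples. PDGFRB had 6, 11, 11 and 10 counts in the DU145KO replicates, 12, 8, 6 and 11 in DU145KO+vector and 3, 2, 6 and 3 in DU145KO+α2. It passed the filter on low counts only through the α2 negative lines, so no test is given. 3 endothelial markers summed to at most 1.47 CPM. Of 3 leukocyte markers only CD68 was above the floor, at 47.7 to 81.6 CPM over all samples.

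Levels per transcript length, in RPKM (reads scaled to library size and gene length), spanned the range from abundant to not detected. BSG had the highest median over the 12 samples, 333 RPKM, above 99.6% of the genes in the table. TIMP1 and TIMP2 followed with medians of 115 and 105 RPKM, and TIMP2 was the higher of the pair in 6 of 12 samples. Their order depended on the line. TIMP1 was higher in each DU145KO+α2 sample and TIMP2 in each DU145KO+vector sample, while the DU145KO samples were split. MMP14 had a median of 55.6 RPKM and lay below both inhibitors and above every other MMP in each sample. MMP15 came next with 12.002 RPKM, then MMP24 with 6.39 RPKM, MMP1 with 4.26 RPKM and MMP13 with 0.565 RPKM. The position of MMP1 depended on the line: it was higher than MMP24 in 4 samples, those of DU145KO+α2, and lower in the other 8. TIMP3 had a median of 0.

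**Figure D1:**
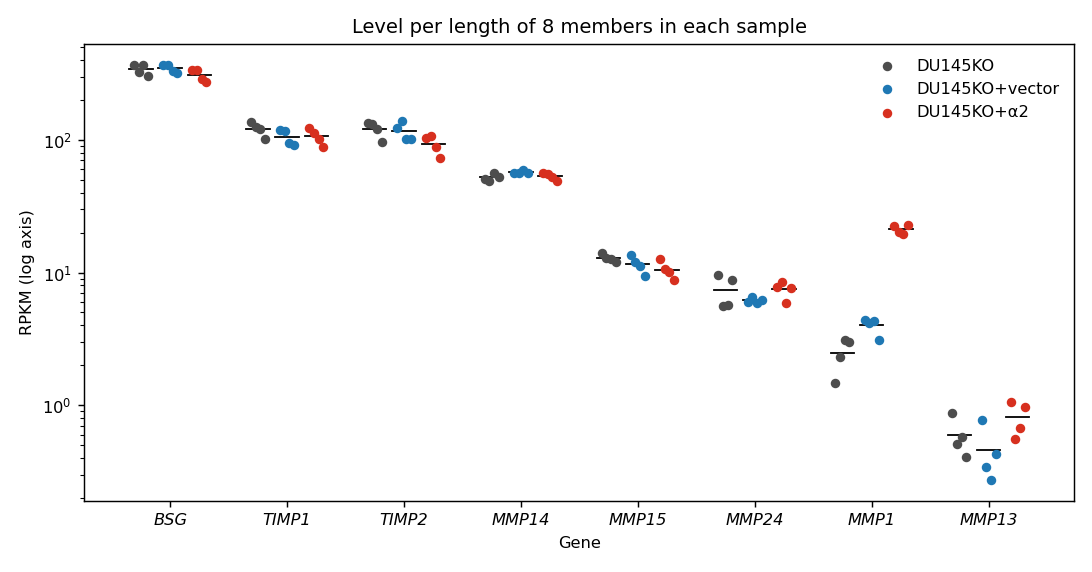
Level of the 8 tested members in RPKM on a log axis, with 1 point per sample coloured by line and a bar at the mean of each line; TIMP3 is not drawn. BSG, TIMP1, TIMP2 and MMP14 lie at the top in all 3 lines, and MMP1 is the member whose 4 DU145KO+α2 points stand apart from the other 8.

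The upstream sequences shown are those of TIMP1, an inhibitor among the members with the highest levels, and of TIMP3, which was not detected. They come from RefSeq on GRCh38.p14, in a table that held 6 of the 9 members; MMP1, MMP13 and TIMP2 had no entry. TIMP1 is at chrX:47582186-47582407 and TIMP3 at chr22:32801455-32801704, both on the plus strand and ending just before the annotated gene start. Capitals mark GGGCGG or its reverse complement CCGCCC, the GC box bound by SP1, and in TIMP1 also TGTGGTT, the reverse complement of the RUNX motif AACCACA.
TIMP1: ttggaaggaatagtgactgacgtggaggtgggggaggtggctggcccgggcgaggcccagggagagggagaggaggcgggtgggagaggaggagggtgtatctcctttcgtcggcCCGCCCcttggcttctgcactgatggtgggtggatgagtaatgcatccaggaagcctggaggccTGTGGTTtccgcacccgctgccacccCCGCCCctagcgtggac
TIMP3: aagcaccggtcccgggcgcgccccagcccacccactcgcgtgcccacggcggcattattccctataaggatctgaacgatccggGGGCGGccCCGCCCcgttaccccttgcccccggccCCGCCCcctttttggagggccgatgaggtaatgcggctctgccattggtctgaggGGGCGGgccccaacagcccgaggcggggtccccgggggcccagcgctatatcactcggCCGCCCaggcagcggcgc

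Each motif was searched on both strands of the 250 bases before the RefSeq start of each gene. For MMP14, TIMP1 and BSG the last 25, 28 and 6 of these bases lie past the start in GENCODE 44, and the TIMP1 sequence shown leaves them out. GGGCGG was found 5 times before TIMP3 and MMP15, 3 times before MMP24, 2 times before TIMP1, 1 time before MMP14 and not before BSG. Of 27303 promoters in the table, 42.3% held GGGCGG. BSG had 2 entries, and only the first was searched. AACCACA was found 1 time, before TIMP1, and 3.63% of all promoters held it. TGANTCA, a consensus of the AP-1 motif, and TATAAA were not found before any of the 6 members, and 6.60% and 11.1% of all promoters held them. Only exact matches were counted, so TGAGTAA in the TIMP1 sequence, 1 base from TGANTCA, was not. The search therefore cannot show that a gene lacks an AP-1 site. In the sequences shown, no capitals belong to more than 1 searched motif. This window held 31 CpG dinucleotides before MMP15, 26 before TIMP3, which was not detected here, and 25 before MMP24. There were 13 before BSG, 12 before TIMP1 and 7 before MMP14, and the median of all promoters was 11. As many or fewer were held by 90.7%, 82.7% and 80.8% of promoters for MMP15, TIMP3 and MMP24. These are descriptions of the sequence only.

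MMP1, the interstitial collagenase, was the member with the largest difference between lines. MMP1 is on chromosome 11, from 102789401 to 102798160 on the minus strand of GRCh38. It was 3.04, 4.76, 6.51 and 6.20 CPM in the DU145KO replicates, 8.97, 8.61, 8.97 and 6.40 CPM in DU145KO+vector, and 45.2, 41.5, 40.1 and 47.0 CPM in DU145KO+α2. Every DU145KO+α2 sample was above every sample of the other lines, while DU145KO and DU145KO+vector overlapped. The raw counts behind these values were 46 to 106 in DU145KO, 93 to 162 in DU145KO+vector and 679 to 831 in DU145KO+α2.

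MMP1 rose 5.26-fold in DU145KO+α2 compared to DU145KO+vector, a log2 fold change of 2.39 with a standard error of 0.17 (95% interval 2.04 to 2.75, adjusted p = 8.18e-07, higher in 4 of 4 same-numbered pairs). Compared to DU145KO it rose 8.42-fold, a log2 fold change of 3.07 with a standard error of 0.18 (95% interval 2.70 to 3.45, adjusted p = 1.09e-07). These comparisons share the DU145KO+α2 samples. Between the α2 negative lines MMP1 was 0.68 higher on the log2 scale in DU145KO+vector (standard error 0.18, adjusted p = 0.0655, higher in 4 of 4 pairs). This did not pass the threshold in edgeR, with or without the replicate block (adjusted p = 0.0562 with it), and passed in the DESeq2 Wald test (adjusted p = 0.00807). In RPKM the level of MMP1 was 2.47 ± 0.753 in DU145KO, 4.005 ± 0.611 in DU145KO+vector and 21.2 ± 1.60 in DU145KO+α2 (SD, n = 4 each).

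MMP13, the other collagenase among the members, was near the lower limit of the test. MMP13 is on chromosome 11, from 102942995 to 102955732 on the minus strand, 144835 bases from MMP1. It was 2.38, 1.404, 1.60 and 1.11 CPM in the DU145KO replicates, 2.105, 0.933, 0.747 and 1.17 CPM in DU145KO+vector, and 2.85, 1.498, 1.83 and 2.67 CPM in DU145KO+α2, from 13 to 46 raw counts per sample. The lines overlapped, but DU145KO+α2 was above DU145KO+vector in each of 4 same-numbered pairs. The log2 fold change was 0.80 with a standard error of 0.33 (95% interval 0.11 to 1.503, adjusted p = 0.137). With the replicate block, which pairs same-numbered samples, it was 0.85 with a standard error of 0.24 and passed (95% interval 0.35 to 1.34, adjusted p = 0.0111). Without replicate 3 or 4, the blocked call was lost (adjusted p = 0.0514 each), and without DU145KO+vector replicate 1 the unblocked fit made the call (1.22, adjusted p = 0.0256). Compared to DU145KO the difference in MMP13 was 0.44 (standard error 0.32, adjusted p = 0.478).

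MMP14 (MT1-MMP), the membrane MMP with the highest level per length, differed little between lines. MMP14 is on chromosome 14, from 22836560 to 22849041 on the plus strand. It was 184, 179, 207 and 191 CPM in the DU145KO replicates, 203, 202, 215 and 204 CPM in DU145KO+vector, and 199.97, 197, 191 and 176 CPM in DU145KO+α2. All 4 DU145KO+α2 samples lay below all 4 of DU145KO+vector, with a narrow gap. The log2 difference was −0.11 with a standard error of 0.07 (95% interval −0.25 to 0.03, adjusted p = 0.355). Compared to DU145KO it was 0.00 with a 95% interval of −0.14 to 0.15 (adjusted p = 0.981).

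MMP15 (MT2-MMP) is on chromosome 16, from 58025754 to 58046901 on the plus strand. It was 61.8, 58.1, 56.9 and 53.7 CPM in the DU145KO replicates, 59.6, 53.2, 50.5 and 42.0 CPM in DU145KO+vector, and 55.1, 46.8, 45.3 and 39.1 CPM in DU145KO+α2. In each of the 4 same-numbered pairs DU145KO+α2 was the lowest line, although the groups overlapped. Compared to DU145KO the log2 difference was −0.31 with a standard error of 0.11 (95% interval −0.54 to −0.08, adjusted p = 0.102). With the replicate block it was −0.32 with a standard error of 0.06 and passed (95% interval −0.44 to −0.19, adjusted p = 0.000608). Without DU145KO+α2 replicate 1 it also passed unblocked (−0.39, adjusted p = 0.0427). Compared to DU145KO+vector MMP15 was −0.14 (95% interval −0.37 to 0.09, adjusted p = 0.479).

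MMP24 (MT5-MMP), known mainly from the nervous system, is on chromosome 20, from 35226690 to 35276998 on the plus strand. It was 41.3, 24.7, 25.1 and 38.6 CPM in the DU145KO replicates, 25.8, 28.3, 25.6 and 27.2 CPM in DU145KO+vector, and 33.3, 36.8, 25.8 and 33.3 CPM in DU145KO+α2. The range of the DU145KO replicates held all other samples. The log2 difference between DU145KO+α2 and DU145KO+vector was 0.28 (standard error 0.16, 95% interval −0.06 to 0.61, adjusted p = 0.312). In the GENCODE 44 annotation 18.4% of the exon bases of MMP24 are shared with an antisense gene, MMP24-AS1 in the table. That gene was at 100.8 to 150.2 CPM and was itself higher in DU145KO+α2 compared to DU145KO+vector (log2 fold change 0.30, standard error 0.09, adjusted p = 0.0486). The libraries were stranded, but the strand setting of the counting is not given in the sources used here, so reads in the shared bases cannot be assigned with certainty.

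**Figure D2:**
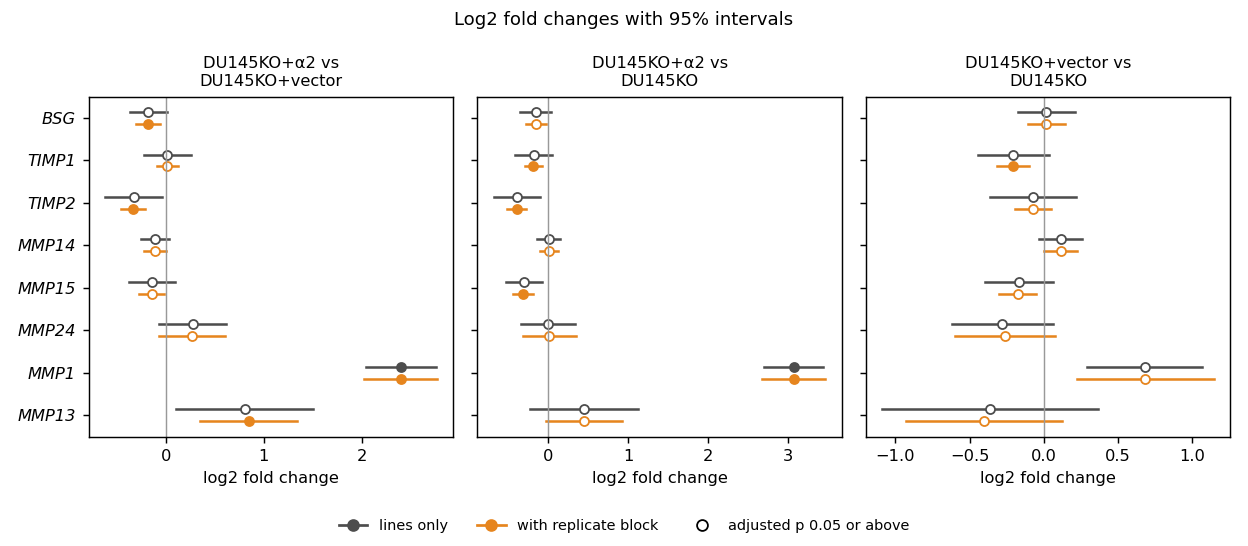
Log2 fold change of each tested member (points) with its 95% interval (bars) in the 3 comparisons, without and with the replicate block. Filled points have an adjusted p below 0.05, and the scale of the x axis differs between panels. The intervals of MMP1 lie far above 0 in both comparisons with DU145KO+α2, and the others lie closer to 0, with the unblocked interval of MMP13 at 0.11 to 1.503 in DU145KO+α2 compared to DU145KO+vector.

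TIMP2 had the largest differences from DU145KO+α2 among the TIMPs tested. TIMP2 is on chromosome 17, from 78852977 to 78925387 on the minus strand. It was 488, 488, 449.9 and 354 CPM in the DU145KO replicates, 444, 507, 373 and 370.4 CPM in DU145KO+vector, and 372, 388, 325 and 267 CPM in DU145KO+α2. DU145KO+α2 was the lowest line in each of the 4 same-numbered pairs, although the groups overlapped. Compared to DU145KO+vector the log2 difference was −0.33 with a standard error of 0.14 (95% interval −0.61 to −0.04, adjusted p = 0.147). With the replicate block it was −0.33 with a standard error of 0.06 and passed (95% interval −0.45 to −0.21, adjusted p = 0.000187). Compared to DU145KO it was −0.40 with a standard error of 0.14 (adjusted p = 0.0919), and −0.40 with a standard error of 0.06 with the block (95% interval −0.52 to −0.28, adjusted p = 2.81e-05). The blocked calls of TIMP2 were kept in 4 of 4 fits that left out 1 replicate number. The unblocked comparison with DU145KO passed without DU145KO replicate 4 (−0.49, adjusted p = 0.0288).

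TIMP1, which also acts as a growth factor-like ligand, is on chromosome X, from 47582408 to 47586789 on the plus strand, inside an intron of SYN1. It was 124, 115, 113 and 93.0 CPM in the DU145KO replicates, 108, 106, 87.3 and 84.4 CPM in DU145KO+vector, and 111, 103, 94.3 and 82.1 CPM in DU145KO+α2. The transfected lines interleaved, with a log2 difference of 0.02 (95% interval −0.22 to 0.25, adjusted p = 0.95). Both were below DU145KO in each same-numbered pair. In DU145KO+α2 compared to DU145KO TIMP1 was −0.19 (standard error 0.11, adjusted p = 0.371), and −0.19 with the block (standard error 0.05, adjusted p = 0.0113). In DU145KO+vector compared to DU145KO it was −0.20 (standard error 0.11, adjusted p = 0.425), and −0.21 with the block (standard error 0.05, adjusted p = 0.0111). Leaving out 1 replicate number at a time, these blocked calls were made in 1 of 4 and 2 of 4 fits.

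TIMP3, an inhibitor that binds the extracellular matrix and also blocks ADAM proteases, was not detected. TIMP3 is on chromosome 22, from 32801705 to 32863041 on the plus strand, inside SYN3. It had 0 counts in 11 of 12 samples and 1 count in DU145KO+α2 replicate 3. A count of 0 over a line allows a level of up to 0.0462 CPM in DU145KO and 0.0469 CPM in DU145KO+vector, for counting error only. With 1 count in all, no test could show a difference between lines.

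BSG is on chromosome 19, from 571277 to 583494 on the plus strand. It was 877, 787, 891 and 731 CPM in the DU145KO replicates, 876, 871, 802 and 774 CPM in DU145KO+vector, and 787, 800.3, 691 and 663 CPM in DU145KO+α2. DU145KO+α2 was below DU145KO+vector in each same-numbered pair. The log2 difference was −0.18 with a standard error of 0.09 (95% interval −0.37 to 0.02, adjusted p = 0.247). With the replicate block it was −0.18 with a standard error of 0.06 and passed (95% interval −0.30 to −0.05, adjusted p = 0.0316), but it was called in 1 of 4 fits that left out 1 replicate number. Compared to DU145KO the difference was −0.16 (95% interval −0.35 to 0.03, adjusted p = 0.339).

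Over the 8 tested members, 1 was called higher (MMP1) and 0 lower in DU145KO+α2 compared to DU145KO+vector at an adjusted p below 0.05, where 5.96% of the 14732 genes tested were called higher and 5.95% lower. MMP1 was also the 1 member that was differentially expressed (DE), with a fold change above 2 as well, against 2.21% of all genes. With the replicate block, 2 members were called higher (MMP1 and MMP13) and 2 lower (TIMP2 and BSG), where 12.9% of all genes were called higher and 13.7% lower. In DU145KO+α2 compared to DU145KO, 1 member was called higher and 0 lower, against 3.09% and 5.08% of all genes, and 1 was DE, against 2.10%. With the block 1 was called higher and 3 lower (MMP15, TIMP1 and TIMP2), against 9.93% and 12.4%.

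In DU145KO+vector compared to DU145KO, 0 of 8 members were called by edgeR in either direction, against 0.496% of all genes higher, 1.84% lower and 0.835% DE. 1 member had an unadjusted p below 0.05, DESeq2 called 1 (MMP1) and voom called 0. With the block 0 were called higher and 1 lower (TIMP1), against 5.59% and 7.85%. The median log2 fold change of the members was −0.05 in DU145KO+α2 compared to DU145KO+vector, −0.08 compared to DU145KO and −0.12 in DU145KO+vector compared to DU145KO, where that of all genes was within 0.01 of 0.

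Same-numbered samples of the 3 lines moved together for the inhibitors. TIMP1, TIMP2, BSG and MMP15 were each below their line mean in replicate 4 of all 3 lines, on average by −0.23, −0.27, −0.14 and −0.21 on the log2 scale. All 4 genes were above their line mean in replicate 1 of all 3 lines. MMP13 was above its line mean in replicate 1 of all 3 lines, on average by 0.59. MMP1 showed no such shared sign, with replicate 1 below the line mean in 1 of 3 lines. What the numbers stand for beyond a biological replicate is not given in the labels.

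**Figure D3:**
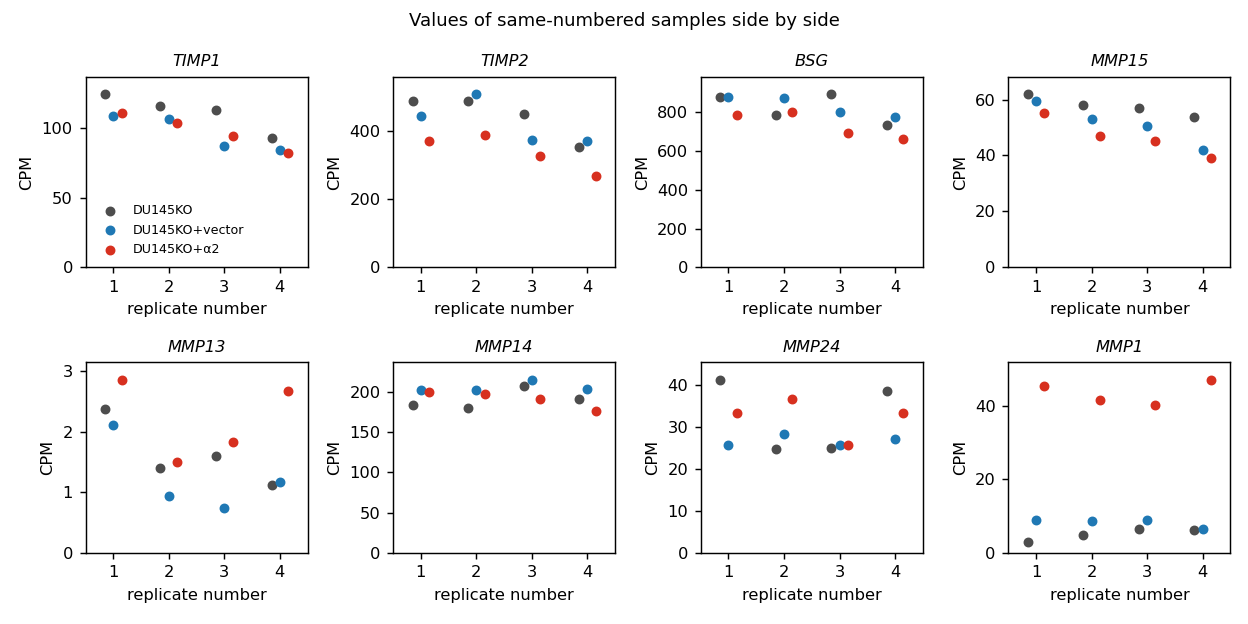
CPM of the 8 tested members, with the 3 lines side by side at each replicate number, a label without order. Replicate 4 holds the lowest TIMP1, TIMP2, BSG and MMP15 value of each line, and MMP1 in DU145KO+α2 lies far above both α2 negative lines at every number.

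Summing levels per length put the members on 1 scale, as a description with no test. The summed level of the 5 MMPs was 75.8 ± 3.48 RPKM in DU145KO, 79.3 ± 2.72 RPKM in DU145KO+vector and 93.1 ± 5.49 RPKM in DU145KO+α2 (SD, n = 4 each). The summed level of the TIMPs was 241 ± 31.4, 221 ± 31.7 and 199 ± 29.6 RPKM in the same order. The ratio of the MMP sum to the TIMP sum was 0.276 to 0.391 in DU145KO, 0.311 to 0.414 in DU145KO+vector and 0.432 to 0.549 in DU145KO+α2. The DU145KO+α2 samples thus lay above all others. The MMP sum includes MMP1, at mean levels of 2.47, 4.005 and 21.2 RPKM in the same order. MMP14 was at 52.4, 57.2 and 53.2 RPKM. A ratio without MMP1 was not made, so no shift of the other MMPs is shown. MMP14 made up most of the MMP sum, 69.2% in DU145KO, 72.1% in DU145KO+vector and 57.1% in DU145KO+α2. The share of MMP1 was 3.25%, 5.03% and 22.8% in these lines. These ratios compare transcripts and say nothing of protein or activity, and in bulk samples fewer cells expressing a gene and less RNA per cell cannot be told apart.

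**Figure D4:**
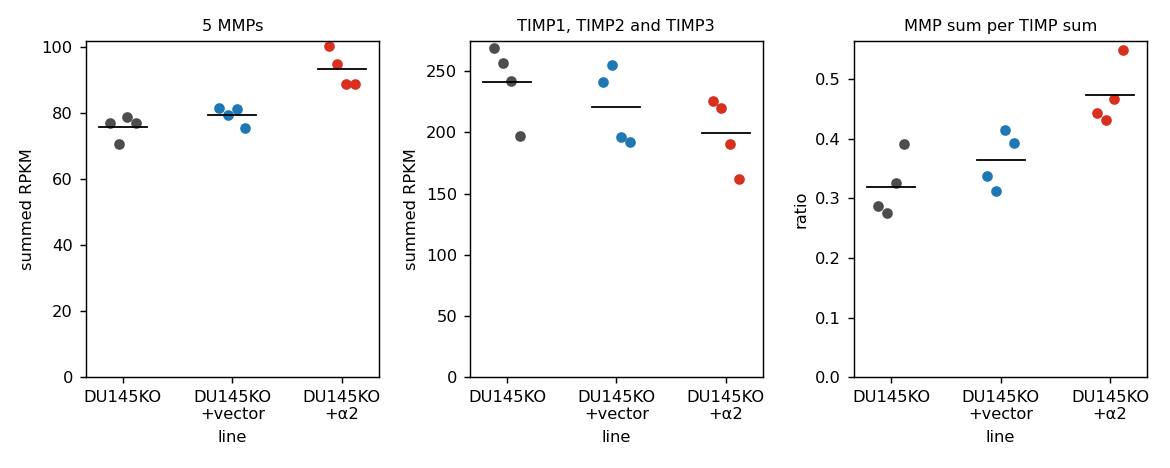
Summed MMP level, summed TIMP level and their ratio, in RPKM, with 1 point per sample and a line mean for each of the 3 lines. The 4 DU145KO+α2 samples have MMP to TIMP ratios of 0.432 to 0.549, above the highest DU145KO+vector sample at 0.414. The MMP sum includes MMP1, which was itself higher in DU145KO+α2.

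MMP1 and MMP13 lie in a cluster of MMP genes on chromosome 11, which allowed neighbours to be compared. Of 10 cluster genes 2 were tested, and MMP7, MMP20, MMP27, MMP8, MMP10, MMP3 and MMP12 had at most 3 counts in any sample. WTAPP1, a pseudogene on the opposite strand that shares 8.14% of the exon bases of MMP1, had 3, 0, 2 and 2 counts in DU145KO+α2 and 0 elsewhere. Of 18 other genes in the table within 1000000 bases of MMP1, 8 were tested. In DU145KO+α2 compared to DU145KO+vector 1 of the 8 was called, YAP1, a transcriptional coactivator of the Hippo pathway. YAP1 rose by 0.27 on the log2 scale (edgeR adjusted p = 0.0193). Of all genes, 5.96% were called higher and 5.95% lower in this comparison. The 8 ranged from −0.17 for DYNC2H1 to 0.80 for MMP13. Compared to DU145KO 1 was called, the apoptosis inhibitor BIRC3, which was lower by −0.50 (edgeR adjusted p = 0.00464). Of all genes, 3.09% were called higher and 5.08% lower there. In DU145KO+vector compared to DU145KO edgeR called 0 of the 8, against 0.496% of all genes higher and 1.84% lower. BIRC3 was the lowest of the 8 there too, at −0.37.

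**Figure D5:**
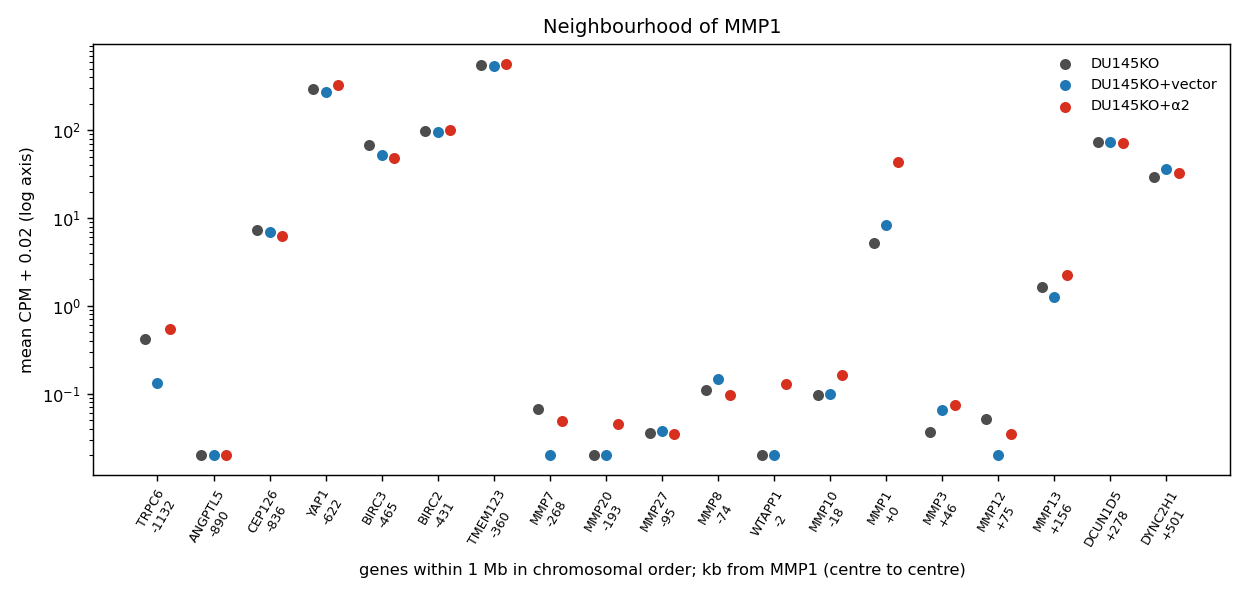
Mean CPM, with 0.02 added, on a log axis for MMP1 and the genes within 1000000 bases of it, in chromosomal order with the distance between gene centres in kb, and 1 point per line. The DU145KO+α2 mean of MMP1 lies above both other lines, and the rest of the MMP cluster except MMP13 lies near the floor.

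Among related enzymes that are not members, the membrane MMPs MMP16 and MMP17 passed the filter on low counts. MMP16 (MT3-MMP) had 24, 19, 13 and 18 counts in the DU145KO replicates, 2, 2, 0 and 1 in DU145KO+vector and 2, 3, 1 and 1 in DU145KO+α2. MMP16 passed the filter on low counts only through DU145KO, so no test is given, and both transfected lines lay at or under the floor of 3 counts per sample. MMP17, a membrane MMP with a lipid anchor, was lower in DU145KO+α2 compared to DU145KO+vector by −0.50 on the log2 scale (edgeR adjusted p = 0.0174) and compared to DU145KO by −0.45 (adjusted p = 0.038). Of 14 other, mostly secreted MMPs, MMP11 was the 1 with enough counts. EdgeR, DESeq2 and voom called MMP11 in none of the 3 comparisons (unadjusted p below 0.05 in 0). MMP2, the gelatinase activated through MMP14 and TIMP2, had 0 counts.

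Of the other MMP inhibitors, RECK, a membrane-anchored inhibitor, was lower in DU145KO+α2 compared to DU145KO+vector by −0.42 (edgeR adjusted p = 0.00585), with every DU145KO+α2 sample below every DU145KO+vector sample. Compared to DU145KO RECK was −0.10 (adjusted p = 0.613), and with the replicate block RECK was higher in DU145KO+vector compared to DU145KO (0.32, adjusted p = 0.00224). A2M, a plasma protease inhibitor, was lower than in DU145KO in both DU145KO+α2 (−2.12, adjusted p = 0.0134) and DU145KO+vector (−3.17, adjusted p = 0.00767). A2M had 43, 37, 34 and 15 counts in the DU145KO+α2 replicates and 33, 8, 17 and 1 in DU145KO+vector. The last of these lay under the floor of 3 counts. In DU145KO+α2 compared to DU145KO+vector the groups overlapped, and A2M was not called without the block (1.05, standard error 0.57, edgeR adjusted p = 0.293). With the block A2M was called higher in this comparison (1.11, adjusted p = 0.00533). TIMP4 had at most 7 counts.

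Among 4 proprotein convertases, which activate membrane MMPs, PCSK6 was higher in DU145KO+α2 compared to DU145KO+vector by 0.81 (edgeR adjusted p = 0.0337) with no overlap between the groups. Compared to DU145KO PCSK6 was 0.10 (adjusted p = 0.86), and DU145KO+vector had the lowest mean level (26.1 CPM, against 42.8 CPM for DU145KO and 45.8 CPM for DU145KO+α2). PCSK6 was also lower in DU145KO+vector compared to DU145KO with the replicate block (−0.70, adjusted p = 0.0102). PCSK5 had 28, 22, 16 and 13 counts in the DU145KO replicates, 9, 9, 6 and 3 in DU145KO+vector and 0, 1, 4 and 1 in DU145KO+α2. It passed the filter on low counts through DU145KO, so no test is given. FURIN was 0.09 in DU145KO+α2 compared to DU145KO+vector (95% interval −0.07 to 0.25, edgeR adjusted p = 0.529). Among 5 tested partners and paralogs of basigin, EMB, a basigin paralog, was lower in DU145KO+α2 compared to DU145KO+vector by −0.28 (edgeR adjusted p = 0.0314). No other was called without the replicate block, and of all genes 5.96% were called higher and 5.95% lower in that comparison. With the block NPTN, another paralog, was higher in that comparison (0.20, adjusted p = 0.00384), and EMB was also lower compared to DU145KO (−0.25, adjusted p = 0.00357).

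Neither uptake receptor, LRP1 or MRC2, was called without the replicate block by edgeR, DESeq2 or voom in any comparison (unadjusted p below 0.05 in 0). With the block MRC2 was lower in DU145KO+α2 compared to DU145KO (−0.20, edgeR adjusted p = 0.0377). The 3 tested ADAM and ADAMTS proteases were not called without the block either (unadjusted p below 0.05 in 0), and with it ADAM10 was higher in DU145KO+α2 compared to DU145KO (0.14, edgeR adjusted p = 0.0471). Of 12 AP-1, ETS and RUNX factors, edgeR called 0 in each comparison without the block. Of all genes it called 0.496% to 5.96% higher and 1.84% to 5.95% lower. In DU145KO+α2 compared to DU145KO+vector 4 of the 12 factors had an unadjusted p below 0.05, DESeq2 called 1 and voom called 0. With the replicate block 3 were called higher (FOSL2, JUN and JUND) and 1 lower (ETS1), against 12.9% and 13.7% of all genes. Compared to DU145KO 2 had an unadjusted p below 0.05. With the block 1 was called higher (FOSL2) and 1 lower (ETS1), against 9.93% and 12.4% of all genes. In DU145KO+vector compared to DU145KO 1 had an unadjusted p below 0.05. With the block 0 were called higher and 1 lower (ETS2), against 5.59% and 7.85% of all genes.

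The genes whose pattern over the 12 samples was most like that of MMP1, by the root mean square difference of centred log2 CPM, were ITGA2 (0.777), DQX1 (0.787), KIF26B (0.7998), FER1L4 (0.821) and FOXL1 (0.850), where the spread of MMP1 itself was 1.36 on this measure. For MMP13, with a spread of 0.539, they were NPM2 (0.221), SPTSSA (0.247), ODF3B (0.256), WFDC3 (0.258) and SEMA4B (0.273). These are descriptions over samples that share their lines and replicate numbers.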

How the data were processed

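RNA of 12 spheroid samples, 4 of each of the DU145KO, DU145KO+α2 and DU145KO+vector lines, was sequenced from stranded mRNA libraries. The authors base called reads with bcl2fastq 1.8.4, aligned them to hg38 with TopHat2 2.1.0 and counted uniquely aligned reads per gene with Subread 1.5.0. The deposited counts are raw reads per gene. The deposited RPKM values were made by the authors from counts after TMM normalization. The strand setting and annotation release of the counting are not given in the sources used here.

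The tests used edgeR 4.0.16 under R 4.3.3 (TMM, filterByExpr with a minimum count of 10, robust quasi-likelihood test, two-sided, all 12 samples, line as the factor). Genes were called at a Benjamini-Hochberg adjusted p below 0.05 over all 14732 genes tested. Standard errors are the log2 fold change divided by the square root of F. CPM use TMM library sizes. Alternatives were DESeq2 1.42.0, limma 3.58.1 (voom), other normalizations and filters, fits of the groups compared alone, each sample left out, and the replicate number as a block. The statistics were tested on simulated data. Gene positions and overlaps come from GENCODE 44.

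Replicate numbers come from the sample labels and pair the samples: over the 12 same-numbered pairs of different lines, deviations from the line means correlated at 0.135 to 0.554. No pair of replicates agreed within sampling noise. The labels call the replicates biological, and floors cover counting error only, since reads carry no molecular identifiers. Sequencing lanes were not considered.

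The members and gene lists were chosen with earlier results of these data known. Genes named are all members, ITGA2, up to 4 called genes of each list per comparison with the smallest adjusted p, the MMP cluster, genes overlapping a member, and the 5 genes most like MMP1 and MMP13. Others named (FURIN, MMP2, MMP11, TIMP4, YAP1, BIRC3, DYNC2H1, FOS and the blocked calls) were chosen after their values were seen. A check of prostate lineage markers is not reported here.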

Additional observations from a re-analysis of the deposited data

Results flagged for a closer look

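3 of 25 groups of 4 samples held a sample whose gap to the nearest other, divided by the range of the group, was above Dixon's 95% critical value, where chance flags about 1 in 20 groups. MMP1 in DU145KO+vector replicate 4 had a ratio of 0.86, with 6.40 CPM against 8.61 to 8.97 CPM in the other replicates. MMP14 in DU145KO+vector replicate 3 had a ratio of 0.879, with 215 CPM against 202 to 204 CPM. TIMP3 in DU145KO+α2 replicate 3 had a ratio of 1, which rests on 1 count against 0 in the other replicates.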

How the results depend on the processing

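MMP1 was called in DU145KO+α2 compared to both other lines under each alternative fit, with log2 fold changes of 2.39 to 2.40 and 3.07 to 3.12, and whichever of the 12 samples was dropped (2.29 to 2.45 and 2.91 to 3.21). No member changed direction where it was called. With the replicate block the genes called went from 1754 to 3911 in DU145KO+α2 compared to DU145KO+vector, from 1203 to 3286 compared to DU145KO and from 344 to 1980 in DU145KO+vector compared to DU145KO. The members called with the block were 4, 4 and 1, against 1, 1 and 0 without it. The block changed no other call of a member than those printed beside its values. The DESeq2 Wald test called 587 genes and 1 member (MMP1) in DU145KO+vector compared to DU145KO, and the cause was not tested. Leaving out 1 sample gave 160 to 528 genes and 0 to 1 members in that comparison, 1229 to 1841 genes and 1 to 2 members for DU145KO+α2 against DU145KO+vector, and 837 to 1197 genes and 1 to 2 members compared to DU145KO. MMP1 was called in DU145KO+vector compared to DU145KO without DU145KO replicate 3 (0.81, adjusted p = 0.0377) or 4 (0.79, adjusted p = 0.0394). Leaving out 1 replicate number from the blocked fit, an alternative chosen after seeing the data, gave 1010 to 1669 genes and 0 to 2 members in DU145KO+vector compared to DU145KO, 2802 to 3393 genes and 2 to 4 members for DU145KO+α2 against DU145KO+vector, and 2246 to 2711 genes and 3 to 5 members compared to DU145KO. RPKM levels moved by less than 1 SD without TMM. The low counts of MMP13 and the absence of counts for TIMP3 limit what could be shown at this depth.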

Other observations

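The ratio of TIMP1 to TIMP2 in RPKM was 1.06 to 1.23 in DU145KO+α2, 0.943 to 1.05 in DU145KO and 0.837 to 0.972 in DU145KO+vector, so the DU145KO+α2 samples lay above all others. FOS, a subunit of AP-1, was 220, 132 and 168 CPM in replicate 1 of DU145KO, DU145KO+α2 and DU145KO+vector, and 15.8 to 33.8 CPM in all other samples. MMP13, TIMP1, TIMP2, BSG and MMP15 were also above their line means in replicate 1 of each line. Whether any of these is related to FOS was not tested.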
